A study of Mus musculus with 31 samples.

Results

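Cytosolic ribosomal protein genes encode the protein part of the ribosome that translates nuclear mRNAs. They were followed here in mouse embryonic stem (ES) cells and in the embryoid bodies (EBs) that form when such cells are left to differentiate. Members were the array probe sets annotated to exactly 1 gene whose symbol starts with Rpl or Rps and a number, or is Rpsa, Rplp0, Rplp1 or Rplp2. Ribosomal S6 kinase genes and pseudogene symbols were left out, and a gene was represented by its brightest probe set over all arrays. This gave 35 genes of 8251 named by 1 symbol, and 49 probe sets of 12422 tested. Assigned by symbol, 18 genes belong to the small subunit and 17 to the large subunit. The stalk genes Rplp1 and Rplp2, and Rps6, Rps25, Rps27a, Rpl5 and Rpl11, have no probe set of their own under this rule and were not analysed here.

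The cells were B6 mouse ES cells grown on mouse embryonic feeders with serum and the cytokine LIF. The groups were EBs at day 14 (6 arrays), day 8 (6 arrays) and day 4 (7 arrays) after LIF withdrawal in nonadherent dishes, ES cells depleted of feeders and cultured on gelatin (6 arrays, day 0), and ES cells sorted by flow cytometry on an Oct4 GFP reporter (6 arrays, day 0). EBs were seeded from cells on gelatin, no cell type was selected within them, and the promoter fragment and the number of clones behind the reporter are not given in the sources used here. RNA was amplified in 2 rounds and hybridised to 31 Affymetrix MgU74Av2 arrays, and the deposited signal is a dChip model value on a linear scale.

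Each ribosome carries a single copy of most of these proteins, the small subunit reading the mRNA and the large subunit joining amino acids. Ribosomal protein mRNAs are among the most abundant of a growing cell. They typically begin with a C and a run of pyrimidines, the 5′ terminal oligopyrimidine (TOP) tract, through which mTOR signalling controls their translation, so that mRNA level and protein output can part. A few genes have a paralog, in some cases with a protein that can take the place of the common one. By symbol, 4 paralogs were measured (Rps4l, Rps27l, Rpl39l and Rpl7l1), beside 31 common genes.

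The tract was looked for in the RefSeq promoter table (GRCm38.p6), which held 28 of the 35 members. The annotated start was a C followed by 4 or more C or T in 5 of the 28 genes (17.9%), against 813 of all 27025 genes in the table (3.01%). Those 5 are shown first, from 30 bases before the start through 30 bases from it, and then 5 genes described in detail further on whose annotated start is not such a tract. Capitals mark the tract and any whole match, on either strand, to CCGGAAG (the ETS core) or AAGATGG (the YY1 core).
Rps10, chr17:27635215-27635274, minus strand: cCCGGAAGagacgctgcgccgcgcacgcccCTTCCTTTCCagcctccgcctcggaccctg
Rps18, chr17:33955636-33955695, minus strand: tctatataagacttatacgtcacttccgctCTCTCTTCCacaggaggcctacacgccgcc
Rps27, chr3:90213619-90213678, minus strand: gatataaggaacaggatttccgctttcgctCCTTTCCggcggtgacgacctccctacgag
Rpl35a, chr16:33056452-33056511, plus strand: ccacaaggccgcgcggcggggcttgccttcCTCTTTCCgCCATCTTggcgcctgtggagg
Rpl38, chr11:114668550-114668609, plus strand: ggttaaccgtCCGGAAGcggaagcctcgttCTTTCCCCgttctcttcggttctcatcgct
Rpl13a, chr7:45128716-45128775, minus strand: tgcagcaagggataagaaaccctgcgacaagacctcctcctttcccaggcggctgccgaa
Rpl22, chr4:152325696-152325755, plus strand: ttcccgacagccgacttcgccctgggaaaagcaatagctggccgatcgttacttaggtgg
Rpl39l, chr16:10170198-10170257, plus strand: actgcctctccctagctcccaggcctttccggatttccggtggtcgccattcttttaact
Rpl7l1, chr17:46782627-46782686, minus strand: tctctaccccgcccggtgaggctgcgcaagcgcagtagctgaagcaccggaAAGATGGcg
Rps27l, chr9:66946056-66946115, plus strand: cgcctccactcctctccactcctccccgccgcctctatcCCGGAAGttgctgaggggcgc

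The tract depends on the exact base annotated as the start, and a missing match says only that these letters are not there. Over the whole promoter stretch of 250 bases before and 50 from the start, the ETS core was found in 12 of the 28 genes (42.9%), against 9.93% of all genes. The YY1 core was found in 7 of the 28, against 7.28% of all genes. The E-box CACGTG was found in 3 members (10.7% against 8.09% of all genes). The TATA box, searched as TATAAA, was found in 4 (14.3% against 15.67% of all genes). The YY1 matches lie in Rpl13a, Rpl22, Rpl35a, Rpl7a, Rpl7l1, Rps27 and Rps7, and the ETS matches include Rps10, Rpl19, Rps27l, Rpl39l and Rpsa.

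Signal spanned a wide range over the members, and signals of different probe sets are not compared as amounts of mRNA. The mean over all arrays was at least 5000 for 20 genes and under 1000 for 9 genes. Rpl41, the shortest ribosomal protein, reached 32060 on one array, the highest value of any member. Rpl39, Rpl38, Rps20, Rps14 and Rps15 had means between 102 and 278.9, although their proteins are core parts of every ribosome. No member value lay at the floor of 59.6 set before the log2 step. The probe sets of 25 members carry the plain suffix of a unique design, and 10 have another suffix, with which probes can match several transcripts.

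**Figure D1:**
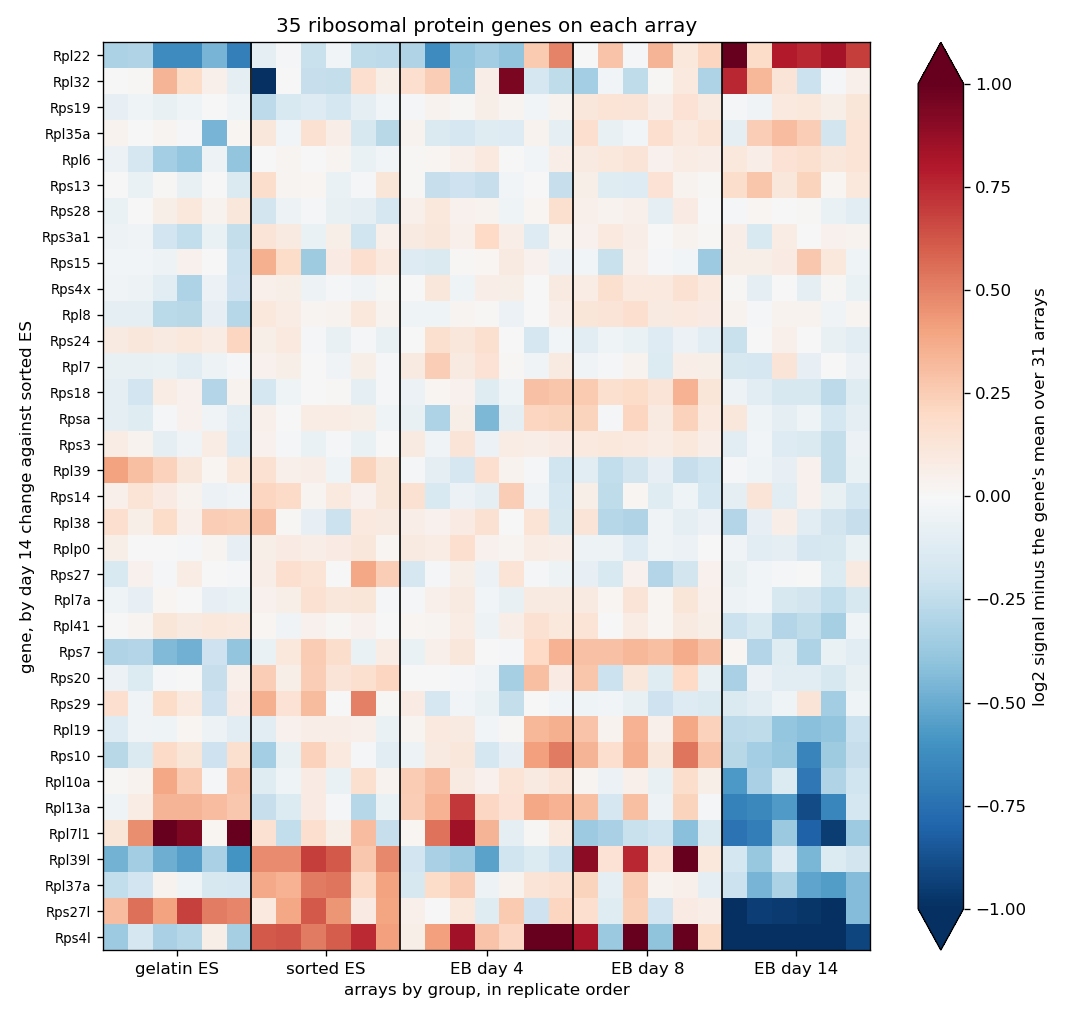
Heat map of 35 ribosomal protein genes (rows, ordered by the day 14 change against sorted ES cells) on 31 arrays (columns, by group and replicate); colour is the log2 signal minus the gene's mean over all arrays, cut at 1 in either direction. Most rows are pale. Rps4l, Rps27l, Rpl7l1, Rpl13a and Rpl37a are bluest at day 14, and Rpl22 turns red there. Rpl39l is bluest in gelatin ES cells and also blue at days 4 and 14. Day 8 arrays 1, 3 and 5 are redder than 2, 4 and 6 for Rps4l and Rpl39l.

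Arrays within a group correlated between 0.947 and 0.997. Unlabelled sets of arrays stood apart within gelatin ES cells (replicates 1, 2 and 5 from 3, 4 and 6), day 8 (1, 3 and 5 from 2, 4 and 6) and day 4 (6 and 7 from the rest), and the counts that rest on them are given with and without them. The 3′ to 5′ signal ratio of the Gapdh control, which rises as RNA or cDNA shortens, had a median of 2.41 at day 14, 2.27 at day 8, 3.16 for the day 4 arrays, 5.18 in gelatin ES cells and 2.91 in sorted ES cells. Day 14 (2.065 to 2.678) and day 8 (2.108 to 2.608) lay below both ES groups in this ratio without overlap. Day 4 (2.24 to 4.403) overlapped both. The part of this ratio in the changes of the EB groups was not tested. Each of the 12 pluripotency markers had fallen by day 14 relative to sorted ES cells, their summed signal being 13310 to 27610 at day 14 and 67150 to 79250 in sorted ES cells, and 10 of the 12 were lower in gelatin than in sorted ES cells. Of 9 visceral endoderm markers 7 were higher and 1 lower at day 14 (summed signal 31880 to 40990 at day 14 and 3293 to 3631 in sorted ES cells). Of 10 fibroblast markers 7 were higher and 1 lower (31790 to 49360 at day 14 and 11570 to 16560 in sorted ES cells; 20250 to 30340 in gelatin ES cells). The part of these shifts in the results below was not tested. In such bulk RNA, fewer cells of a type and less RNA per cell cannot be told apart.

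At day 14, the ribosomal protein genes were lower more often than higher against sorted ES cells. Of the 35 genes, 18 fell, 3 rose and 14 did not pass (limma over all probe sets, adjusted p under 0.05). Over all 12422 probe sets, 24.0% were lower and 24.8% higher. The changes were small: the median over the 35 genes was -0.16 on the log2 scale, against 0 over all probe sets. Of the 35 genes 29 lay within 0.5 of no change, beside 9722 of all 12422 probe sets. Only Rps4l and Rps27l, both paralogs, were lower by 2-fold or more (1.91% of all probe sets were). With each array centred on its median, all probe sets had a median of -0.11, with 1 member higher and 25 lower beside 18.7% and 41.1% of all probe sets; quantile normalization gave 3 and 19 members beside 20.2% and 33.1%.

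All 4 paralogs fell at day 14 against sorted ES cells, and without them 14 of 31 genes fell and 3 rose, with a median of -0.10. The subunits had similar counts, 8 lower and 1 higher of 18 for the small subunit and 10 lower and 2 higher of 17 for the large subunit. The 20 bright genes (mean signal of 5000 or more) had 9 lower and 2 higher, and the 9 dim genes (under 1000) had 5 lower and none higher.

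**Figure D2:**
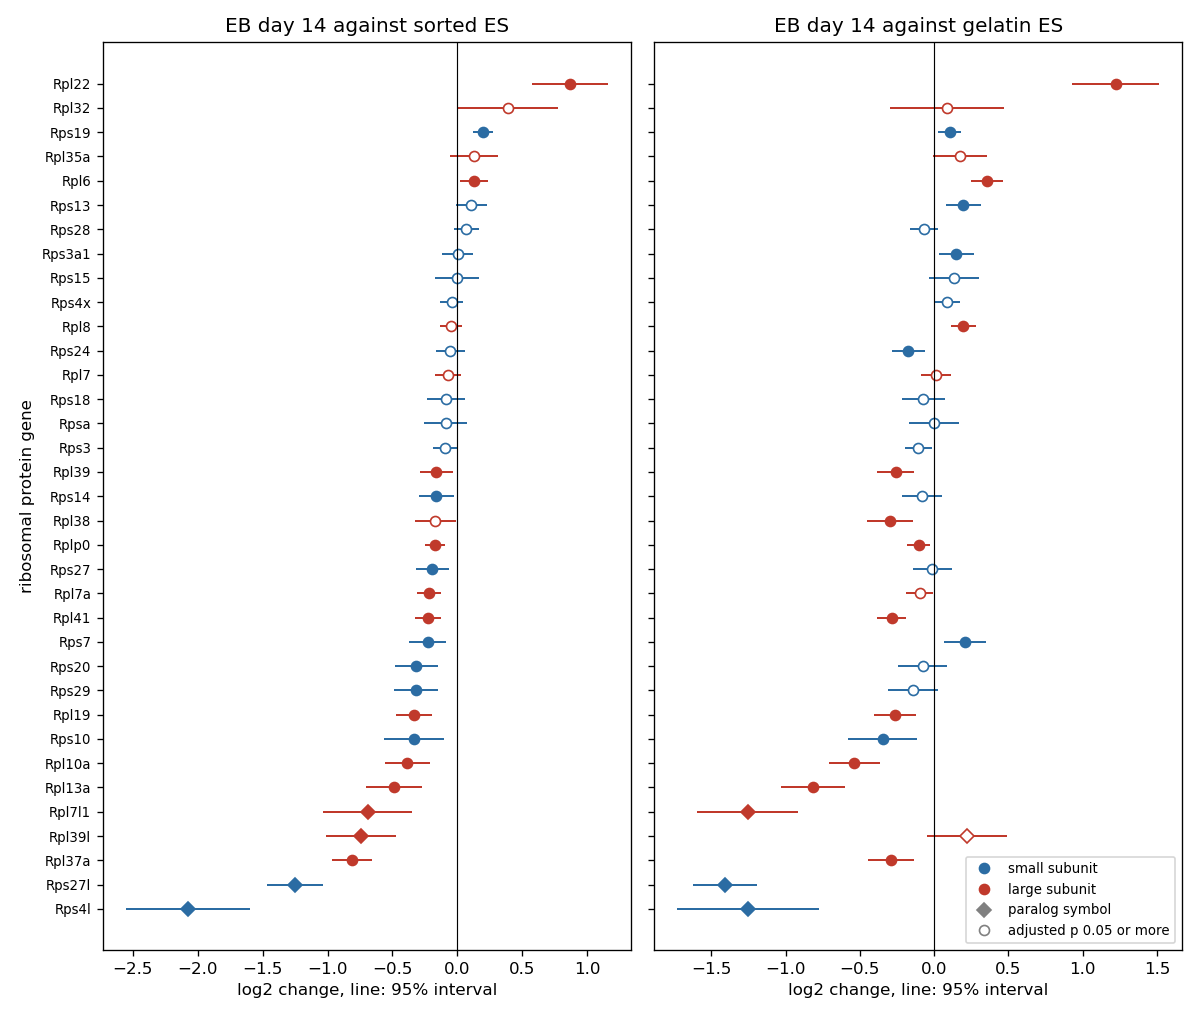
Log2 change of 35 ribosomal protein genes at EB day 14 against sorted ES cells (left) and gelatin ES cells (right); lines are 95% intervals, filled symbols have an adjusted p under 0.05, blue is the small and red the large subunit, and diamonds are paralogs. Most genes lie within 0.5 of no change in both panels, with Rps4l and Rps27l at the low end and Rpl22 at the high end.

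Rps4l, the ribosomal protein S4-like gene, had the largest change. Its signal had a lowest, median and highest value of 694.8, 747 and 1212 at day 14, 1738, 3331 and 5065 at day 8, with 2384, 3054 and 5690 at day 4. In gelatin ES cells the values were 1781, 1855 and 2387, and in sorted ES cells 3043, 3504 and 3841. Day 14 lay below every other group without overlap, and gelatin ES cells lay below sorted ES cells. The change at day 14 was -2.08 ± 0.24 (log2, SE) against sorted ES cells (adjusted p = 5.57e-08) and -1.25 ± 0.24 against gelatin ES cells (adjusted p = 9.91e-05). The common gene Rps4x was not called at day 14 against sorted ES cells in its brightest probe set (-0.04 ± 0.04, adjusted p = 0.415). Its dimmer probe sets (means 505.3, 300.9, 223.9 and 180.7) changed by -0.35, -0.41, -0.28 and 0.03. The Rps4l probe set has a suffix for probes shared between transcripts, and the second, dimmer Rps4l probe set (mean 321.6) changed by -0.19 against sorted and 0.10 against gelatin ES cells.

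Rps27l, a paralog of Rps27 that is a p53 target in human cells, also fell at day 14. Its lowest, median and highest values were 1396, 1587 and 2293 at day 14, 2714, 3256 and 3655 at day 8, with 2687, 3210 and 3707 at day 4, against 3829, 4379 and 4976 in gelatin and 3271, 4053 and 4731 in sorted ES cells. Day 14 again did not overlap with any other group. The change was -1.25 ± 0.11 against sorted (adjusted p = 2.35e-10) and -1.41 ± 0.11 against gelatin ES cells (adjusted p = 2.54e-11). Rps27l was already lower at day 8 (-0.29 ± 0.11, adjusted p = 0.0328) and day 4 (-0.29 ± 0.10, adjusted p = 0.0395) than in sorted ES cells. The day 8 call was lost without any one of sorted ES replicates 2, 3, 4 and 6 or day 8 replicates 2 and 4 (-0.34 to -0.24 over all arrays left out), and the day 4 call without any one of the same sorted arrays or day 4 replicates 2, 4 and 6 (-0.34 to -0.23). Rps27 itself changed less, by -0.19 ± 0.06 at day 14 (adjusted p = 0.0118). The only Rps27l probe set lacks the plain suffix, so its probes can match several transcripts, and no other Rps27l probe set was there to compare.

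Rpl39l, a paralog of Rpl39 found mainly in male germ cells of mice, was higher on average in sorted ES cells and at day 8 than in the other groups. Gelatin ES cells held 401.1, 435 and 483.9 (lowest, median, highest) and sorted ES cells 731.7, 845.4 and 982.1. EBs held 418.6, 523.8 and 550.9 at day 4, then 654, 847.7 and 1355 at day 8, then 441.3, 535.5 and 556.1 at day 14. Gelatin ES cells, day 4 and day 14 lay wholly below sorted ES cells, whereas at day 8 replicates 1, 3 and 5 lay above the sorted range and replicates 2, 4 and 6 below it, so the day 8 mean stands for neither set. Against sorted ES cells the changes were -0.96 ± 0.13 in gelatin ES cells, -0.78 ± 0.13 at day 4, 0.03 ± 0.13 at day 8 (adjusted p = 0.904) and -0.74 ± 0.13 at day 14. Day 8 was above day 4 by 0.81 ± 0.13 (adjusted p = 3.26e-05), and day 14 was below day 8 by -0.78 ± 0.13 (adjusted p = 7.83e-05). At day 14 it did not differ from gelatin ES cells beyond the spread (0.22 ± 0.13, adjusted p = 0.189).

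Rpl7l1, a paralog of Rpl7, had its highest mean on gelatin and its lowest at day 14. Day 14 held 613.6, 721.7 and 918.2, day 8 held 887.2, 980.2 and 1071, and day 4 held 1111, 1270 and 2131. Gelatin ES cells held 1199, 1947 and 2483 and sorted ES cells 1001, 1272 and 1469. Gelatin replicates 3, 4 and 6 (2256 to 2483) lay above replicates 1, 2 and 5 (1199 to 1638), and replicates 1, 2 and 5 overlapped sorted ES cells, and day 14 lay wholly below both ES groups. Day 14 was lower by -1.26 ± 0.17 than gelatin (adjusted p = 7.34e-07) and by -0.69 ± 0.17 than sorted ES cells (adjusted p = 0.00141), and gelatin exceeded sorted ES cells by 0.57 ± 0.17 (adjusted p = 0.00915), or by 0.17 without gelatin replicates 3, 4 and 6 (adjusted p = 0.502). Rpl7 was not called at day 14 against either ES group.

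**Figure D3:**
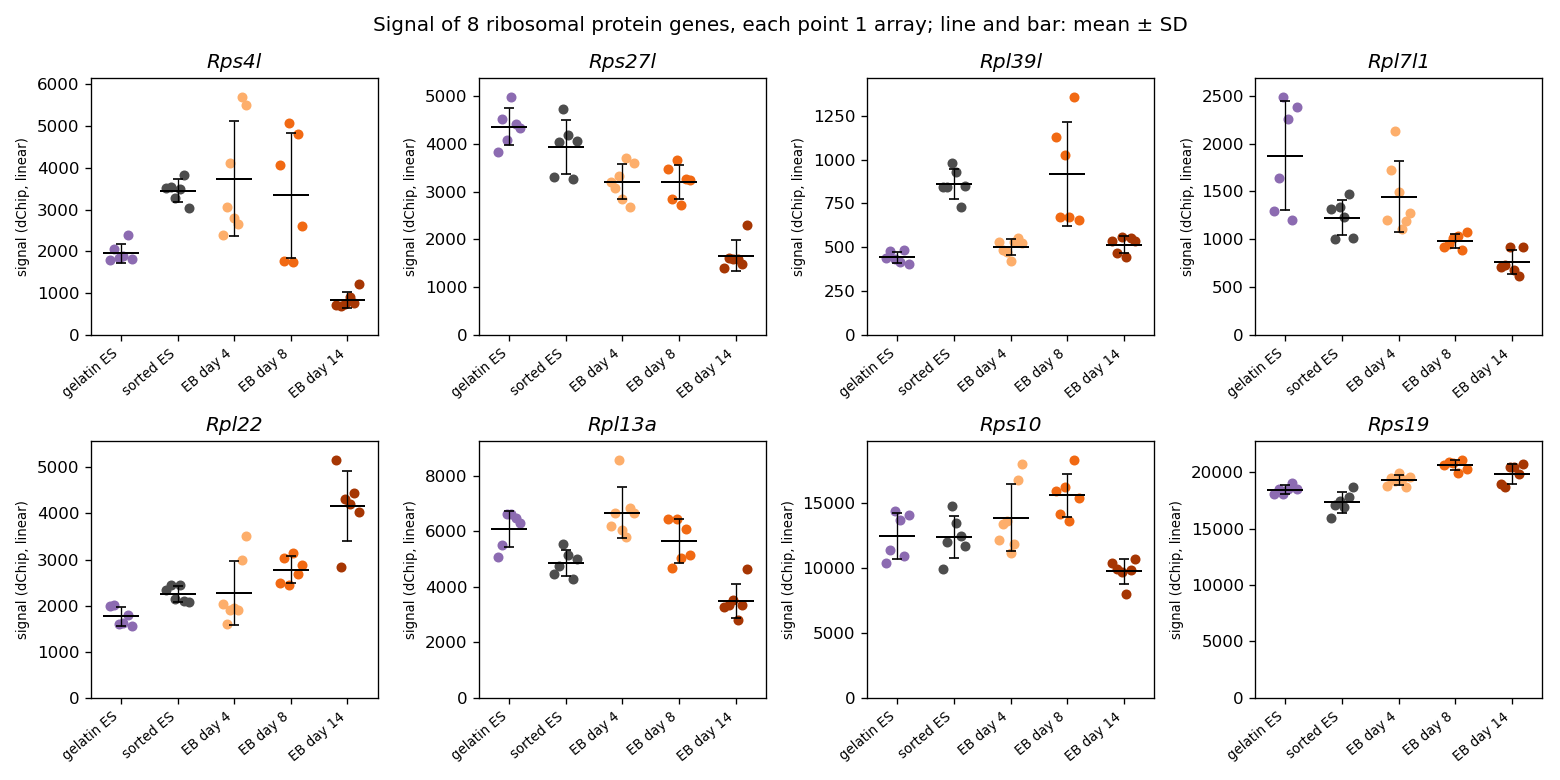
Signal (dChip, linear scale from 0) of Rps4l, Rps27l, Rpl39l, Rpl7l1, Rpl22, Rpl13a, Rps10 and Rps19 in gelatin ES cells, sorted ES cells and EBs at days 4, 8 and 14; each point is 1 array, and the line and bar are the mean ± SD of 6 or 7 arrays. Day 14 is the lowest group for Rps4l and Rps27l and the highest for Rpl22, and day 8 splits into a high and a low set of 3 arrays for Rpl39l.

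Among the common genes, Rpl37a, a zinc-binding protein of the large subunit, fell most against sorted ES cells. Its signal averaged 5898 ± 546.9 at day 14 against 10350 ± 887.8 in sorted ES cells (SD, n = 6 each), a change of -0.81 ± 0.08 (adjusted p = 1.37e-09). It was also lower at day 8 (-0.33 ± 0.08), at day 4 (-0.32 ± 0.07) and in gelatin ES cells (-0.52 ± 0.08), so the mean was highest in sorted ES cells. Against gelatin ES cells it was lower at day 14 (-0.29 ± 0.08) and higher at day 8 (0.19 ± 0.08, adjusted p = 0.0434). The day 8 call was lost without any one of gelatin replicates 1, 2, 5 and 6 or day 8 replicates 1, 3, 4 and 5 (0.15 to 0.22 over all arrays left out), and the day 14 call without gelatin replicates 3, 4 and 6 together (-0.22, adjusted p = 0.0733).

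Rpl13a, which in human monocytes leaves the ribosome to silence inflammatory mRNAs, moved in opposite directions early and late. The lowest, median and highest values were 2811, 3340 and 4642 at day 14, 4667, 5623 and 6458 at day 8, with 5788, 6646 and 8559 at day 4. They were 5091, 6387 and 6610 in gelatin and 4284, 4882 and 5533 in sorted ES cells. Day 4 lay wholly above sorted ES cells (0.45 ± 0.10, adjusted p = 0.00188), and day 14 was below them by -0.49 ± 0.11 (adjusted p = 0.000376) with 1 array in their range. Against gelatin ES cells the day 4 change did not pass (0.13 ± 0.10, adjusted p = 0.404). Day 14 lay wholly below gelatin ES cells (-0.81 ± 0.11, adjusted p = 3.93e-07) and below day 8 (-0.70 ± 0.11, adjusted p = 1.92e-05).

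Rpl10a, a protein of the stalk beside the exit site for spent tRNA, averaged 6963 ± 1044 at day 14, 10060 ± 1187 in gelatin ES cells and 9022 ± 661.3 in sorted ES cells (SD, n = 6 each). It fell by 0.38 against sorted and by 0.54 against gelatin ES cells (adjusted p = 0.000382 and 5.85e-06). A second Rpl10a probe set of similar brightness (mean 8132) gave -0.42 against sorted and 0.02 against gelatin ES cells, so both probe sets were lower against sorted ES cells only. Rpl19, a large subunit protein that bridges to the small subunit, fell by 0.33 against sorted and 0.26 against gelatin ES cells. A second, dimmer Rpl19 probe set (mean 1030) gave -0.24 against sorted and -0.03 against gelatin ES cells. Rpl41 (-0.23), Rpl7a (-0.22) and Rps7 (-0.23), a protein that binds the p53 regulator MDM2 in human cells, were also lower than in sorted ES cells.

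The 3 genes that rose at day 14 were Rpl22, Rps19 and Rpl6. Rpl22, which is dispensable for most mouse tissues but needed by developing T cells, had a lowest, median and highest value of 2836, 4259 and 5152 at day 14. It had 2458, 2785 and 3152 at day 8, with 1609, 1954 and 3514 at day 4, against 1550, 1710 and 2021 in gelatin and 2074, 2236 and 2456 in sorted ES cells. Day 14 lay wholly above both ES groups and overlapped day 8 through a single array. The change was 0.86 ± 0.15 against sorted (adjusted p = 1.70e-05) and 1.22 ± 0.15 against gelatin ES cells (adjusted p = 8.42e-08). The second Rpl22 probe set (mean 1424) changed by -0.02 and 0.02 in the same comparisons, so the rise rests on 1 probe set.

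Rps19, the gene most often mutated in Diamond-Blackfan anaemia in humans, averaged 19850 ± 861.9 at day 14, 20620 ± 419.2 at day 8, 19280 ± 444.7 at day 4, 18460 ± 374.3 in gelatin and 17320 ± 931.7 in sorted ES cells (SD; n = 7 at day 4, otherwise 6). It was higher than in sorted ES cells in all 4 other groups, by 0.20 at day 14, 0.25 at day 8, 0.16 at day 4 and 0.09 on gelatin. With arrays centred on their medians the rises at day 14 (0.09, adjusted p = 0.0961) and on gelatin (0.03, adjusted p = 0.623) no longer passed. Rpl6, a large subunit protein, rose by 0.13 ± 0.05 against sorted ES cells (adjusted p = 0.034), a call lost with median centring (0.02, adjusted p = 0.745) or without any one of sorted ES replicates 5 and 6 or day 14 replicates 3, 4 and 6 (0.12 to 0.14 over all arrays left out), and by 0.36 ± 0.05 against gelatin ES cells.

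The genes picked for their roles otherwise changed little against sorted ES cells. Rplp0, the base of the stalk that recruits elongation factors, averaged 21380 ± 764.4 at day 14, 22970 ± 754 in gelatin and 24120 ± 506.8 in sorted ES cells (SD, n = 6 each), lower by -0.17 than sorted (adjusted p = 0.000184) and by -0.10 than gelatin ES cells (adjusted p = 0.0178). The change against gelatin ES cells did not pass after quantile normalization (-0.07, adjusted p = 0.067), in a fit of those 2 groups (adjusted p = 0.0565) or without gelatin replicates 1, 2 and 5 (-0.07, adjusted p = 0.198). Rps3, at the channel through which mRNA enters, was at -0.10 ± 0.04 against sorted ES cells (adjusted p = 0.0714) and Rpsa, also called the laminin receptor, at -0.09 ± 0.08 (adjusted p = 0.385). Rpl38, which mouse embryos need for translation of certain Hox mRNAs, averaged 171.2 ± 15.37 at day 14 and 193.2 ± 23.19 in sorted ES cells, a dim signal whose change did not pass (-0.17 ± 0.08, adjusted p = 0.0648). Against gelatin ES cells Rpl38 was lower at day 14 (-0.30 ± 0.08, adjusted p = 0.00202). That change was 0 with the floor raised to the 25th percentile of signal.

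The day-0 groups themselves differed. In gelatin ES cells 4 ribosomal protein genes were higher and 11 lower than in sorted ES cells, beside 21.4% and 18.2% of all probe sets, with a median of -0.08. After median centring the counts were 1 and 16 (18.3% and 30.6% of all probe sets), and after quantile normalization 3 and 14 (17.4% and 26.3%). The largest changes were those of Rpl39l, Rps4l and Rpl37a given above and of Rps7, which averaged 9631 ± 689.4 on gelatin and 13040 ± 1168 in sorted ES cells (SD, n = 6 each; -0.44 ± 0.07, adjusted p = 9.30e-06), without overlap. Rpl8, next to the catalytic centre, was lower by -0.25 ± 0.04. Rpl7l1, Rpl13a, Rps28 and Rps19 were the 4 higher genes, and none of the 4 calls held under every alternative. Rpl13a (0.32) did not pass after quantile normalization (0.17, adjusted p = 0.278) or centring (0.26, adjusted p = 0.0563). Rps28 (0.14) did not pass after centring (0.07, adjusted p = 0.22) and was at -0.05 in its plain-suffix probe set. The Rps19 call was lost without any one of gelatin replicates 2, 4, 5 and 6 or sorted ES replicates 1 to 4 (0.07 to 0.12 over all arrays left out). Gelatin replicates 1, 2 and 5 were all above replicates 3, 4 and 6 in 9 members and all below them in 6, as 31.1% of all probe sets separated. Rps10 was 10380, 11380 and 10920 in replicates 1, 2 and 5 and 14370, 13710 and 14060 in replicates 3, 4 and 6, while Rpl6 was 19510, 18140 and 19640 in replicates 1, 2 and 5 and 16080, 15540 and 15450 in replicates 3, 4 and 6. Without replicates 3, 4 and 6, no gene was higher and 6 were lower than in sorted ES cells (17.9% and 12.8% of all probe sets), the calls of Rps4l (-0.74, adjusted p = 0.0722) and Rpl6 (-0.09, adjusted p = 0.119) being among those lost. Without replicates 1, 2 and 5 the counts were 4 and 9 (18.0% and 13.3%). The arrays were divided so after their values were seen, and what sets them apart was not tested. The Gapdh 3′ to 5′ ratio was 3.48 to 6.85 on gelatin and 2.76 to 3.09 in sorted cells, without overlap, and its part in these changes was not tested.

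Against gelatin ES cells, from which the EBs were seeded, the day 14 picture was more mixed. Of the 35 genes 7 were higher and 13 lower, beside 21.8% and 23.2% of all probe sets, and the median was -0.08. Centring gave 4 and 15 (17.7% and 26.8%). Lower genes were again led by Rps27l, Rpl7l1, Rps4l, Rpl13a and Rpl10a, and higher ones by Rpl22, Rpl6, Rps7 (0.21 ± 0.07) and Rpl8 (0.20 ± 0.04). Rps7 did not pass after centring (0.16, adjusted p = 0.0675) or without gelatin replicates 3, 4 and 6 (0.12, adjusted p = 0.286). Without those arrays 3 genes were higher and 11 lower (15.3% and 18.1% of all probe sets), and without gelatin replicates 1, 2 and 5 the counts were 7 and 13 (19.4% and 21.0%). With probe sets of the plain suffix only, 30 genes remained measured, of which 6 were higher and 7 lower, beside 22.9% and 23.0% of 9614 such probe sets.

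At day 8, more ribosomal protein genes were above gelatin ES cells than below them. Of the 35 genes 14 rose and 5 fell, beside 17.4% and 25.6% of all probe sets, and the median was 0.10. The bright genes made up most of the rises, 11 of 20, with 1 fall. Rps7 averaged 15280 ± 354 at day 8 against 9631 ± 689.4 on gelatin (SD, n = 6 each; 0.67 ± 0.07, adjusted p = 9.19e-09), and Rpl39l was higher by 1.00 ± 0.13. Rpl6 (0.32), Rpl8 (0.30), Rpl19 (0.28) and Rps18 (0.27) were also higher, while Rpl7l1 (-0.88 ± 0.17), Rps27l (-0.45 ± 0.11), Rpl39, Rpl38 and Rps24 were lower. Rpl39 and Rpl38 are dim, and their changes were 0 with the floor raised to the 25th percentile of signal. The Rps24 change (-0.20) was 0.05 in its plain-suffix probe set, and the Rpl19 change was 0.10 in its second, dimmer probe set. Without gelatin replicates 1, 2 and 5, 10 genes were higher and 6 lower (13.9% and 21.6% of all probe sets), and without 3, 4 and 6, 12 and 5 (12.3% and 20.7%).

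Against sorted ES cells at day 8, 8 genes were higher and 7 lower, beside 15.3% and 19.9% of all probe sets, and both scalings gave 5 and 7 (14.2% and 21.5% after centring, 15.2% and 20.0% after quantile normalization). Higher genes included Rps10 (0.34 ± 0.11), which sits in the head of the small subunit, Rps18 (0.25 ± 0.07), Rps19 and Rps7 (0.23 ± 0.07). Without day 8 replicates 1, 3 and 5, Rps18 (0.19, adjusted p = 0.0968) and Rps7 (0.21, adjusted p = 0.0629) did not pass. Lower genes included Rpl37a, the dim Rps29 (-0.33 ± 0.08) and Rpl39 (-0.27 ± 0.06), and Rplp0 (-0.12 ± 0.04). The Rpl39 change was 0 with the floor at the 25th percentile.

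Day 8 arrays fell into groups that the labels do not name. Replicates 1, 3 and 5 were all above replicates 2, 4 and 6 in 14 members and all below them in 2 (Rpl22 and Rplp0), as 31.82% of all probe sets separated one way or the other. Rps4l was 4065, 5065 and 4818 in replicates 1, 3 and 5 and 1775, 1738 and 2598 in replicates 2, 4 and 6. Rpl39l was 1127, 1025 and 1355 in replicates 1, 3 and 5 and 670.6, 670.2 and 654 in replicates 2, 4 and 6. Without replicates 1, 3 and 5, 1 gene was higher and 10 lower than in sorted ES cells (15.5% and 17.8% of all probe sets), and 7 were higher and 6 lower than in gelatin ES cells (13.3% and 20.2%). Without replicates 2, 4 and 6 the counts were 8 and 4 against sorted (10.8% and 13.5%) and 16 and 5 against gelatin ES cells (16.0% and 23.8%). The arrays were divided so after their values were seen, and what sets them apart was not tested.

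Fewer ribosomal protein genes passed at day 4. There, 3 genes were higher (Rpl13a, Rps19 and Rps28) and 6 lower than in sorted ES cells, beside 11.1% and 13.7% of all probe sets, with a median of 0.01; Rpl39l and Rpl37a led the lower genes, followed by Rps27l, Rps29, Rps27 and Rps13. The Rps28 change (0.15) did not pass after quantile normalization (0.08, adjusted p = 0.125), and was 0.00 in its plain-suffix probe set. Against gelatin ES cells 9 were higher and 2 lower, beside 7.95% and 16.3% of all probe sets, with a median of 0.06; centring gave 15 and 2 (19.5% and 12.2%). Without gelatin replicates 3, 4 and 6 the counts were 4 and 2 (3.75% and 11.2% of all probe sets), and without 1, 2 and 5 they were 6 and 3 (6.07% and 13.1%). The higher genes were led by Rps4l (0.86 ± 0.23), Rps7 (0.44 ± 0.07) and Rpl6 (0.27 ± 0.05), and the lower ones were Rps27l and Rpl39. With the floor at the 25th percentile the change of the dim Rpl39 was 0. Replicates 6 and 7 at day 4 were above the other 5 in 10 members and below them in 2, as 37.8% of all probe sets separated. Rps4l stood at 5690 and 5513 there, against 2384 to 4107 in the other 5, and without these 2 arrays its change against gelatin ES cells was 0.60 (adjusted p = 0.0552). Also without them, Rpl37a did not pass against gelatin ES cells (0.18, adjusted p = 0.118), nor Rps27l against sorted ES cells (-0.28, adjusted p = 0.0589).

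Between EB stages, 6 genes passed at day 8 against day 4 and 16 at day 14 against day 8. At day 8 against day 4, 4 genes were higher (Rpl39l, Rps7, Rpl8 and Rps19) and 2 lower (Rpl7l1 and Rplp0), beside 11.9% and 12.6% of all probe sets, with a median of 0.00; without day 4 replicates 6 and 7 the counts were 8 and 4 (18.1% and 19.4% of all probe sets), and after centring 2 and 3 (1242 and 1845 of 12422 probe sets). The Rps19 call was lost in 10 of 13 cases with 1 array left out (0.09 to 0.11), all but those of day 4 replicates 4 and 7 and day 8 replicate 4. Rps19 and Rpl8 did not pass after centring (adjusted p = 0.254 and 0.14), and Rplp0 did not pass after quantile normalization (adjusted p = 0.0577). The Rpl7l1 call was lost without day 4 replicate 3 (-0.43). At day 14 against day 8, 2 genes were higher (Rpl22 and Rps13) and 14 lower, beside 20.1% and 11.9% of all probe sets, with a median of -0.10 against 0.03 over all probe sets. Centring gave 1 and 22 (13.9% and 25.4%) and quantile normalization 1 and 16 (14.5% and 19.9%). Rps13 (0.15) did not pass under either scaling (adjusted p = 0.468 after centring and 0.661 after quantile normalization), nor Rpl22 without day 8 replicates 1, 3 and 5 (0.44, adjusted p = 0.142). Without day 8 replicates 1, 3 and 5, none was higher and 13 were lower (5.64% and 3.83% of all probe sets), and without 2, 4 and 6, 1 and 16 (22.8% and 15.2%).

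The genes lower at day 14 than at day 8 included bright common genes. Rps10 averaged 9761 ± 957.6 at day 14 and 15610 ± 1667 at day 8 (SD, n = 6 each), the groups running from 7964 to 10720 and from 13610 to 18300 (-0.68 ± 0.11, adjusted p = 6.27e-05). Rpl19 averaged 10730 ± 658.4 at day 14 and 15710 ± 1603 at day 8 (-0.55 ± 0.07, adjusted p = 1.20e-06), also without overlap. Its second, dimmer probe set (mean 1030) did not pass (-0.13, adjusted p = 0.111). Rpl37a (-0.48), Rps7 (-0.46), Rpl10a (-0.41), Rps18 (-0.34), Rpl41 (-0.28), Rpl7a (-0.21), Rps3 (-0.21) and Rps4x (-0.15) followed. Of the 20 bright genes 11 fell and none rose, with a median of -0.20, and of the 9 dim genes 1 fell.

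Probe sets that carry a ribosomal protein symbol together with other symbols were set aside by the rule, but they cover 34 further or repeated ribosomal protein genes. Against sorted ES cells, 2 of 39 such probe sets were higher and 20 lower at day 14 (median -0.16), beside 24.8% and 24.0% of all probe sets, and none was higher and 21 lower than at day 8 (median -0.18), beside 20.1% and 11.9%. Relative to gelatin ES cells 5 were higher and 12 lower at day 14, beside 21.8% and 23.2% of all probe sets, and 15 higher and 3 lower at day 8, beside 17.4% and 25.6%. What other transcripts they measure cannot be told apart here.

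Counts for other parts of the translation machinery are to be read against 24.8% of all probe sets higher and 24.0% lower for day 14 against sorted ES cells, and 21.8% and 23.2% relative to gelatin ES cells. Of 61 mitochondrial ribosomal protein genes, whose products build the separate ribosome of mitochondria, 42 fell and 3 rose at day 14 against sorted ES cells, with a median of -0.39. Mrpl16 (-1.29 ± 0.14), Mrps10 (-1.28 ± 0.16) and Mrpl21 (-1.26 ± 0.12) changed most. Relative to gelatin ES cells 35 fell and 1 rose, and against day 8 39 fell and 2 rose, beside 11.9% and 20.1% of all probe sets, whereas at day 8 itself 19 were lower and 9 higher than in sorted ES cells, beside 19.9% and 15.3%. The summed signal was 80080 to 95390 at day 14 and 107300 to 123800 in sorted ES cells.

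Of 47 genes for ribosome assembly and RNA polymerase I, 25 fell and none rose at day 14 against sorted ES cells (median -0.34), led by Nhp2 (-1.28 ± 0.11), a protein of the particles that modify ribosomal RNA, Wdr43 (-1.27 ± 0.10) and Nolc1 (-1.10 ± 0.11), both of the nucleolus. Here the fall was already present at day 8, with 23 lower and none higher against sorted ES cells, beside 19.9% and 15.3% of all probe sets. Against day 4, 31 were lower and none higher at day 8, where 12.6% of all probe sets were lower and 11.9% higher. At day 14 against day 8, 6 of the 47 were lower and 1 higher, beside 11.9% and 20.1% of all probe sets. The cytosolic ribosomal proteins had 7 lower and 8 higher at day 8 against sorted ES cells, and 14 lower at day 14 against day 8, beside the same shares. Whether the lists differ in timing was not tested.

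Of 33 initiation factor genes 11 fell and 6 rose at day 14 against sorted ES cells; Eif5, which triggers start codon recognition, rose by 1.19 ± 0.13, while Eif4ebp1, a repressor of the cap-binding protein, changed by -1.17 ± 0.11 and Eif1ax by -0.89 ± 0.20. Of 8 genes on the elongation factor list 1 rose, Eef1a1 (0.21 ± 0.06), which delivers aminoacyl-tRNA. On the same list 2 fell, Eef1b2 (-0.47 ± 0.12) and Eef2k (-0.16 ± 0.04), the latter the gene of a kinase of elongation factor 2 and not of a factor itself. Of 12 other genes with TOP mRNAs or ribosome-bound products 4 rose and none fell, among them Gas5 (1.01 ± 0.21), a noncoding host of small nucleolar RNAs, Hnrnpa1 (0.39 ± 0.12) and Pabpc1 (0.34 ± 0.13). Of 14 regulators of ribosomal protein genes 3 rose and 2 fell: the transcription factors Sp1 (0.85 ± 0.21) and Yy1 (0.83 ± 0.10) rose, and Mycn changed by -0.79 ± 0.16. Of 19 cell cycle genes 8 fell and 2 rose.

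**Figure D4:**
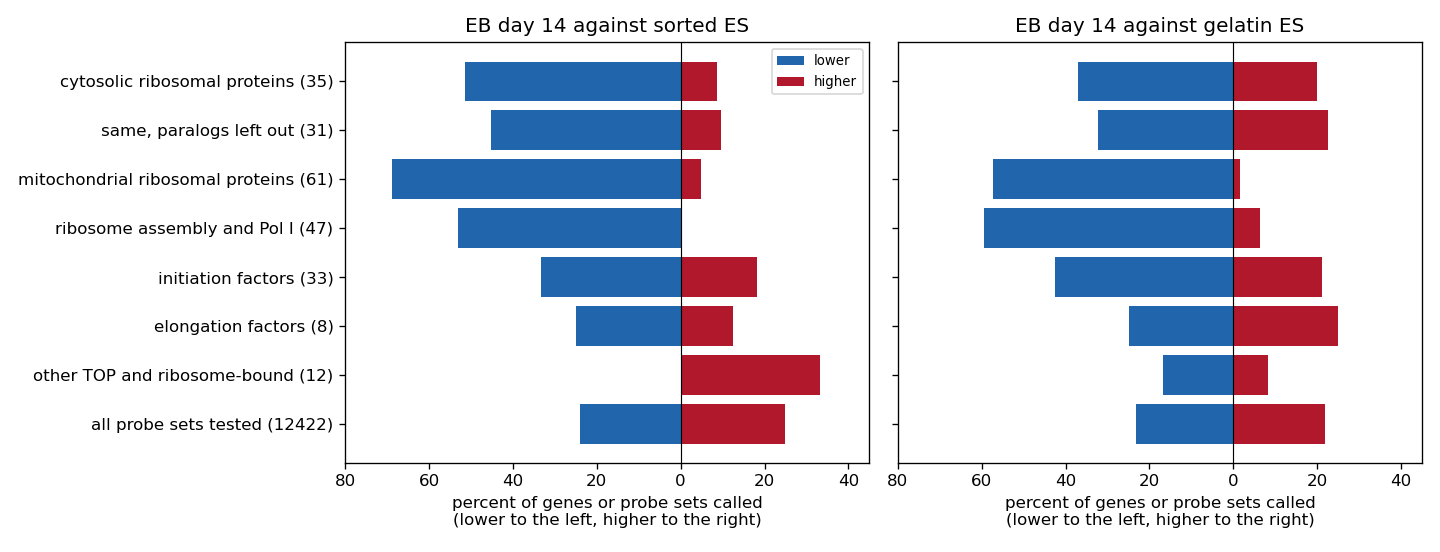
Percent of genes called lower (blue, to the left) and higher (red, to the right) at EB day 14 against sorted ES cells (left panel) and gelatin ES cells (right panel), by gene list with its size in brackets; the bottom bar is all probe sets tested. Mitochondrial ribosomal proteins and ribosome assembly genes have the longest bars to the left in both panels, and the 12 other TOP genes have none to the left against sorted ES cells.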

How the data were processed

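The 31 arrays are B6 mouse ES cells and EBs; GEO's labels gave groups and replicate numbers. The authors amplified total RNA in 2 rounds, hybridised it to MgU74Av2 arrays and used dChip for normalization and modelling; the deposited values are signal intensity on a linear scale (104 of 387128 are exactly 0), so a background level per probe set is unknown. The dChip version is not given in the sources used here. The methods list 12 days where the labels give 14, which were followed. Arrays were treated as separate samples. The methods call the samples of each time point biological, but neither the methods nor the labels say whether they came from separate cultures. The p-values therefore measure the spread between arrays, whose number limits the precision.

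Of 12488 probe sets 66 controls were left out. Intensity below the 5th percentile (59.6) was raised to it and log2 transformed, and 1 linear model with 5 group means was fitted to all arrays (lmFit and trended eBayes of limma 3.58.1 in R 4.3.3; Benjamini-Hochberg over 12422 probe sets, threshold 0.05). It was checked on simulated data of this layout with independent arrays, which does not cover the sets of arrays that stood apart. Comparisons with the same ES group share its arrays. Probe sets with 1 symbol numbered 10833, with several 396 and with none 1193. Genes were named if among the 4 largest called changes per direction without overlap between groups, if called against the majority (up to 6), for their role, or as paralogs, and up to 3 per other list; any others were chosen after their values were seen. Members and lists were chosen with earlier results of these data known. Alternatives were quantile normalization, median centring, 2 other floors, a filter on dim probe sets, 2-group fits, a replicate block, array weights, other probe set choices, and arrays left out. Figures were drawn with matplotlib 3.10.9.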

Additional observations from a re-analysis of the deposited data

Results flagged for a closer look

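Single arrays stood apart from their group in 4 of 125 sets of values (25 named genes in 5 groups, Dixon's test at the 95% level, which chance passes about 1 time in 20). Rps27l read 2293 in day 14 replicate 6, the next value being 1612; without that array its change against sorted ES cells was -1.35, the lower end of -1.35 to -1.20 over all arrays left out. Rpl13a read 8559 in day 4 replicate 3 (next 6857), Rps24 read 23960 in gelatin ES replicate 6 (next 22330) and Rps3a1 read 17090 in day 14 replicate 2 (next 19000).

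Some genes were called in opposite directions at day 14 and day 8 against one ES group. They were chosen for that, which nearly fixes that the day 14 minus day 8 contrast passes, so the differences are a description and no independent test. Against sorted ES cells, Rps10 was at -0.34 at day 14 and 0.34 at day 8 (difference -0.68), Rpl19 at -0.33 and 0.21 (difference -0.55) and Rps7 at -0.23 and 0.23 (difference -0.46). Against gelatin ES cells, Rps4l was at -1.25 at day 14 and 0.65 at day 8 (difference -1.90), Rpl37a at -0.29 and 0.19 (difference -0.48), Rpl19 at -0.26 and 0.28 and Rps10 at -0.35 and 0.33, with the same differences as before. Without day 8 replicates 1, 3 and 5, the day 8 changes of Rps4l (0.04, adjusted p = 0.94) and Rpl37a (0.08, adjusted p = 0.524) against gelatin ES cells no longer passed. In its second, dimmer probe set Rpl19 was at -0.24 at day 14 and -0.11 at day 8 against sorted ES cells. Against gelatin ES cells that probe set was at -0.03 and 0.10.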

How the results depend on the processing

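The calls at day 14 against sorted ES cells were 2 to 3 higher and 16 to 19 lower genes when single arrays were left out, and no named change reversed under any scaling, floor or array left out. Of 440 alternative counts 57 moved by over 1.5 times; their causes were not tested unless the setting itself removes genes or arrays. Counts are given with the value as reported after them. Median centring gave 1 higher (3) at day 14 against sorted ES cells, 5 higher (8) at day 8, 1 higher (4) on gelatin; 4 higher (7) at day 14 and 15 higher (9) at day 4 against gelatin ES cells; 2 higher (4) at day 8 against day 4; and 1 higher (2) and 22 lower (14) at day 14 against day 8. Quantile normalization gave 5 higher (8) at day 8 against sorted ES cells and 1 higher (2) at day 14 against day 8. A floor at the 25th percentile, and leaving out dim probe sets, each gave 3 lower (5) at day 8 and 1 lower (2) at day 4 against gelatin ES cells; the dim filter also gave 1 higher (2) at day 14 against day 8. Fits of 2 groups gave 3 lower (6) at day 4 against sorted and 4 higher (9) against gelatin ES cells, 2 higher (4) and 1 lower (2) at day 8 against day 4, and 1 higher (2) at day 14 against day 8. Array weights gave 7 higher (4) on gelatin against sorted ES cells, 10 higher (4) and 4 lower (2) at day 8 against day 4, and 1 higher (2) at day 14 against day 8. Averaging all probe sets of a gene gave 5 higher (8) at day 8 against sorted ES cells. Plain-suffix probe sets gave 7 lower (13) at day 14, 2 lower (5) at day 8 and 1 lower (2) at day 4 against gelatin ES cells, and 1 higher (2) at day 14 against day 8.

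Chosen after seeing the data, leaving out day 4 replicates 6 and 7 gave 8 higher (4) and 4 lower (2) at day 8 against day 4. Leaving out day 8 replicates 2, 4 and 6 gave 4 lower (7) at day 8 against sorted ES cells, 1 lower (2) against day 4 and 1 higher (2) at day 14 against day 8. Leaving out day 8 replicates 1, 3 and 5 gave 1 higher (8) at day 8 against sorted ES cells, 7 higher (14) against gelatin ES cells, 1 higher (4) against day 4, and 0 higher (2) at day 14 against day 8. Leaving out gelatin replicates 3, 4 and 6 gave 0 higher (4) and 6 lower (11) on gelatin against sorted ES cells, and 3 higher (7) at day 14 and 4 higher (9) at day 4 against gelatin ES cells; it lost 19 of 52 named calls, and leaving out replicates 1, 2 and 5 lost 8 of 52. With single arrays left out, the counts higher and lower ranged from 4 to 7 and 5 to 8 at day 8 and 3 to 3 and 4 to 7 at day 4 against sorted ES cells, and 3 to 4 and 9 to 11 on gelatin. Against gelatin ES cells they ranged from 5 to 8 and 13 to 15 at day 14, 10 to 15 and 5 to 6 at day 8, and 7 to 9 and 2 to 3 at day 4. They ranged from 3 to 7 and 1 to 3 at day 8 against day 4, and from 1 to 2 and 14 to 16 at day 14 against day 8. The value of 4 was without day 8 replicate 5, the 7 without day 4 replicate 6 or 7, and the 1 lower without day 4 replicate 3.

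Changes that reversed did so with another probe set. With plain-suffix probe sets, Rps4l (0.1041), Rps24 (0.0721) and Rpl10a (0.0233) at day 14 and Rps24 (0.0469) at day 8 were above gelatin ES cells, and Rps28 was at -0.0515 on gelatin against sorted ES cells (-0.0061 as the mean of its probe sets). The Rps4l change at day 14 against day 8 was -0.12 there (adjusted p = 0.136), and the Rpl22 change was 0.21 as a mean of probe sets (adjusted p = 0.0567). Same-numbered arrays were not paired: deviations of 60 pairs correlated from -0.351 to 0.494, and 7 of 31 arrays correlated best with their own number. With the replicate number as a block the counts were 2 higher and 18 lower at day 14 against sorted ES cells, and 4 of 106 named calls were lost.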
